A study of Mus musculus with 24 samples.

Results

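Basement membrane genes were measured in the caudal ends of mouse embryos, the still unsegmented tissue at the tail end of the body axis, with 24 Illumina bead arrays of their total RNA. The 10 genes chosen were Fn1, Lama1, Lama5, Lamb1, Lamc1, Col4a1, Col4a2, Nid1, Hspg2 and Dag1. Every probe of the non-normalized table that carries one of these symbols was used, which gave 9 probes of 8 genes out of 25697 probes in all. All 8 genes passed the filter on dim probes and stand among 11008 genes or unnamed probes tested. No probe in the annotation used here carries the symbol of Fn1, which encodes fibronectin, or of Lama5, a laminin alpha chain, so both were not analysed here. The arrays form 6 groups of 4: knockout embryos labelled Srf(-/-) and control littermates, each at 3 stages (E8.5, E8.75, E9.0). The controls are titled wt but carry the genotype label Srf(+/-), and they are called controls here. All groups have the strain label C57Bl/6. Both parents are labelled SRF(flex1/+); T:cre/T:cre, so the controls carry the Cre transgene as well. The product of Srf, serum response factor, is a transcription factor of actin cytoskeleton and immediate early genes. Cre under the T promoter acts in the primitive streak and the mesoderm that arises from it, so other cells in the dissected piece may keep Srf.

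Basement membranes are thin sheets of matrix under epithelia and around tissues such as the neural tube, the somites and the notochord. Laminin, a trimer of an alpha, a beta and a gamma chain, binds receptors on the cell and forms the first sheet, and a collagen IV network lies over it. Nidogen and the proteoglycan perlecan link both networks, and dystroglycan and integrins tie the sheet to the cytoskeleton. In the tail end of the embryo, fibronectin and laminin surround the presomitic mesoderm and take part in somite formation.

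The arrays of E8.75 were brighter, with medians of 145.1 to 173.3 in bead intensity, against 36.8 to 45.9 for the arrays of E8.5 and 36.8 to 38.9 for those of E9.0, so at E8.75 stage and array brightness cannot be told apart. The number of arrays limits the precision, and the labels do not say whether replicates are separate embryos or litters. The p-values therefore rest on a spread between samples that may be technical. The brighter of 2 Srf probes fell by 1.09 at E8.5 and 0.81 at E9.0 on the log2 scale in the knockouts. The limma adjusted p was 0.0168 and 0.000777, with no overlap between genotypes. At E8.75 the difference was -1.005 (limma adjusted p = 0.248) and the arrays overlapped, because control replicate 4 (8.10) lay within the knockout range of 7.64 to 8.51. The dimmer Srf probe had a log2 difference of -0.51 in E9.0 knockouts (limma adjusted p = 0.00489 when each probe was its own feature). Its E8.5 difference was -0.44 and did not pass. Arrays of the genotypes overlapped for this probe at both stages. No array of E8.75 detected it, so its difference there (-0.17) is not read as a change. The place of either Srf probe relative to the deletion is not known from these sources.

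At E9.0, 3 of the 8 measured genes rose in the knockouts: Dag1, Lamc1 and Hspg2, which encode dystroglycan, the laminin gamma chain and perlecan. None fell by the same test. With the arrays of E9.0 alone, Dag1 and Lamc1 rose, Col4a1 fell and Hspg2 did not pass. The share of all features that passed in that fit is not given here, so these calls are not read against it. Over all features tested at E9.0, 24.8% passed the test in either direction, 13.5% higher and 11.3% lower, so the count of 3 in 8 is read against a stage at which much of the array moved. The genes and the gene lists compared below were chosen with earlier results of these data known. Their counts beside the shares over all features are therefore not independent of these data. The median log2 difference was 0.08 over the 8 genes and 0.0056 over all features. At E8.5 and at E8.75 none of the 8 genes passed limma's test, where 0.0454% and 0.127% of all features did (0.0818% higher at E8.75). No gene of the 8 had an unadjusted p under 0.05 at either of these stages. Calls rest on limma's moderated test with Benjamini-Hochberg adjustment over all 11008 features, at an adjusted p under 0.05.

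**Figure D1:**
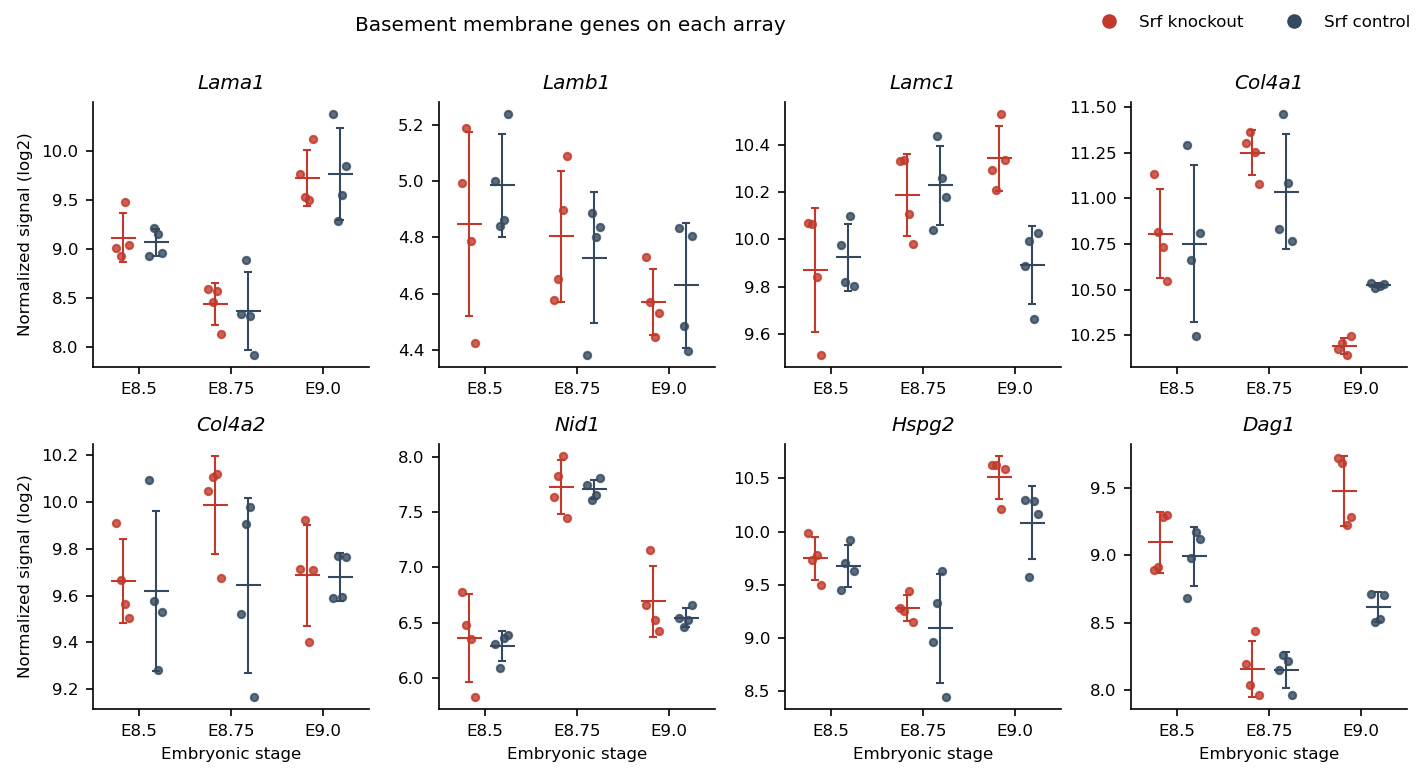
Normalized log2 signal (vertical axis, 1 scale per panel) of the 8 measured genes by embryonic stage, knockout arrays in red and control arrays in dark blue, with bars at the mean ± SD of 4 arrays. At E9.0 the 4 knockout arrays lie above all controls for Dag1 and Lamc1 and below all controls for Col4a1.

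The value of every array shows how far the groups stand apart, and levels are compared only between arrays for 1 probe. Dag1 encodes dystroglycan, a receptor that binds laminin and perlecan through its sugar chains. At E9.0 its probe read 9.72, 9.68, 9.22 and 9.28 on the log2 scale in knockouts, against 8.71, 8.51, 8.53 and 8.71 in controls. The lowest knockout array lay above the highest control. The difference was 0.86 ± 0.12 (SE), a 1.82-fold rise with a limma adjusted p of 2.19e-05. A second, dimmer Dag1 probe read 9.10, 9.32, 8.61 and 8.84 in knockouts at E9.0, against 8.40, 7.90, 8.21 and 8.23 in controls, again without overlap. Its difference was 0.78 ± 0.16 (SE), with a limma adjusted p of 0.000815 when each probe was its own feature; 12.1% of the probes were higher in that test.

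Lamc1 encodes the gamma chain found in most laminins of the early embryo. It read 10.29, 10.21, 10.53 and 10.34 in E9.0 knockouts, against 9.89, 9.99, 9.66 and 10.03 in controls. The groups did not overlap, and the knockout mean was the highest of the 6 groups. The difference was 0.45 ± 0.11 (SE), a 1.37-fold rise with a limma adjusted p of 0.00436.

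The partner laminin chains did not pass the test at E9.0. Lama1, the alpha chain of the first embryonic laminin, read 9.76, 9.53, 9.49 and 10.12 in knockouts, against 10.38, 9.28, 9.55 and 9.84 in controls. Controls spread over a wider range, and it enclosed every knockout array. The log2 difference was -0.04, with a 95% interval of -0.41 to 0.33, which includes changes of either sign. Lama1 lies on chromosome 17 (67697127 to 67822645, GRCm38.p6), as does Srf (46546838 to 46558267). The 1 probe of Lamb1, the beta chain, was close to background. At E9.0 it was detected on none of the 4 knockout arrays and on 2 of the 4 control arrays. No fold is read from it at E9.0. With 1 probe, low expression of Lamb1 and a weak probe cannot be told apart.

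Hspg2 encodes perlecan, a large heparan sulfate proteoglycan. At E9.0 its probe read 10.63, 10.62, 10.21 and 10.58 in knockouts, against 10.30, 9.57, 10.29 and 10.16 in controls. Knockout replicate 3 lay within the control range and the other knockout arrays lay above it. The difference was 0.43 ± 0.16 (SE), a 1.35-fold rise with a limma adjusted p of 0.0468. The call was not kept when the arrays of E9.0 were fitted alone (adjusted p = 0.0887), and without control replicate 2 the difference was 0.26 (adjusted p = 0.23). It was kept in 11 of 24 fits that left out 1 array. It was lost without control replicates 2 and 4 or knockout replicates 1, 2 and 4 of E9.0 (adjusted p = 0.0746 to 0.23), and without control replicates 2 and 4 or knockout replicates 2 and 3 of E8.5 and control replicates 1 and 2 or knockout replicates 2 and 4 of E8.75 (0.05 to 0.0543).

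Nid1 encodes nidogen, which links laminin to collagen IV. It read 6.66, 7.15, 6.53 and 6.42 in E9.0 knockouts, against 6.54, 6.46, 6.52 and 6.66 in controls. One knockout array stood above the rest while the others lay near the controls. The log2 difference was 0.15, with a 95% interval of -0.15 to 0.44, and did not pass the test.

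**Figure D2:**
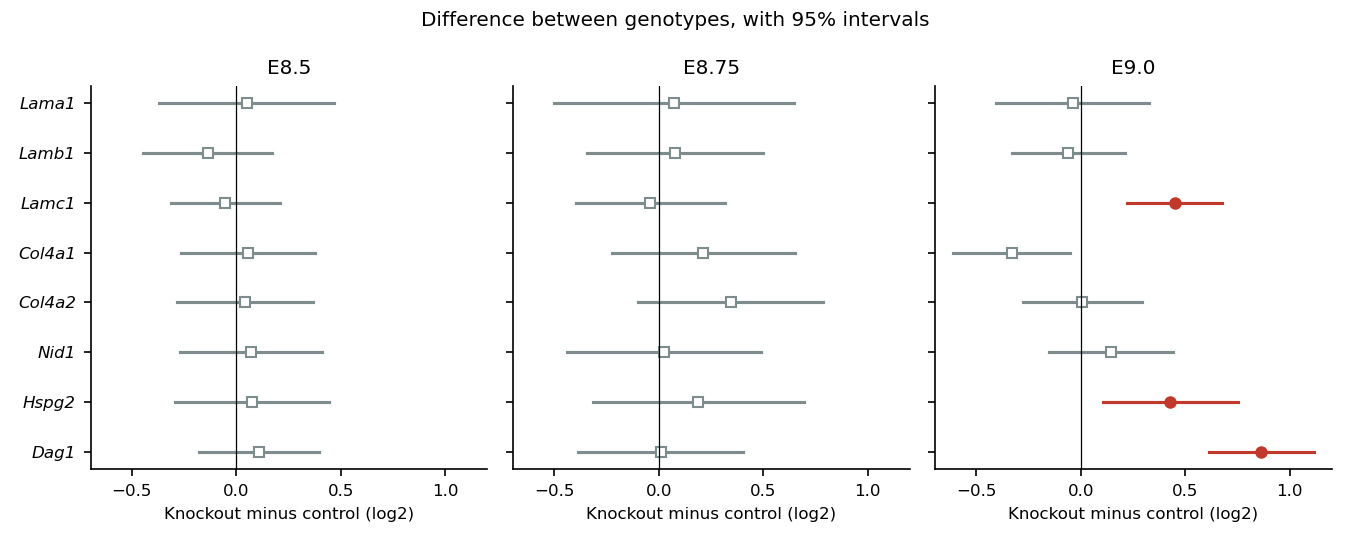
Knockout minus control difference (log2, horizontal axis) of the 8 measured genes at each stage, with 95% intervals; filled red circles passed limma's test and open squares did not. At E9.0 Dag1 (0.86), Lamc1 (0.45) and Hspg2 (0.43) passed, and the Col4a1 interval (-0.61 to -0.05) lies below 0.

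Col4a1 and Col4a2 encode the 2 chains of the main collagen IV trimer and lie head to head on chromosome 8. In GRCm38.p6, Col4a1 spans 11198423 to 11312889 and Col4a2 spans 11312805 to 11449287. Their RefSeq start windows (250 bases before to 50 after the start) are shown because both genes read from the same stretch in opposite directions. The start used for Col4a1 was base 11312826, which lies inside the span given, and for Col4a2 it was 11312805. The windows are chr8:11312777-11313076 on the minus strand for Col4a1 and chr8:11312555-11312854 on the plus strand for Col4a2. Capitals mark the 78 bases that both windows hold, each written 5′ to 3′ on its own strand:
Col4a1: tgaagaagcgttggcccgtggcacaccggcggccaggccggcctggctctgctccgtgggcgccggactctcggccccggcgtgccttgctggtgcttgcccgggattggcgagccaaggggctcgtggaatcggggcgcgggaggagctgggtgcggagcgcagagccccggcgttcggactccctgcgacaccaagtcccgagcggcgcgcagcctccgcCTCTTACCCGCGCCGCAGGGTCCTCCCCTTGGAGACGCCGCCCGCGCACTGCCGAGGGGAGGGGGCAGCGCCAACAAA
Col4a2: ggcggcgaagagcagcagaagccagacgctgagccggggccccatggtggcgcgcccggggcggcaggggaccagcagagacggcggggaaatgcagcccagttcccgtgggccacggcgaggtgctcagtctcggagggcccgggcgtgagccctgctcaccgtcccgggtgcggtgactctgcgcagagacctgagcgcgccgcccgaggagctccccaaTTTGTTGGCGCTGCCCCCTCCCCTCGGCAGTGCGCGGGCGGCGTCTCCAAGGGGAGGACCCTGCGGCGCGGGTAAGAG

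At E9.0 the genotypes stood apart for Col4a1 and overlapped for Col4a2. Col4a1 read 10.18, 10.21, 10.14 and 10.25 in knockouts, against 10.54, 10.51, 10.52 and 10.53 in controls. The arrays of both genotypes were tightly grouped and did not overlap. The log2 difference was -0.33 ± 0.14 (SE) and missed the threshold in the fit of all arrays (limma adjusted p = 0.0778). With the arrays of E9.0 alone, Col4a1 passed (adjusted p = 0.0137), as it did without control E8.5 replicate 1 (0.0374) or replicate 3 (0.0396). Across all features, 25.5% had groups that did not overlap at E9.0, and 3 of the 8 genes did (Dag1, Lamc1 and Col4a1).

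Col4a2 read 9.71, 9.92, 9.40 and 9.71 in E9.0 knockouts, against 9.59, 9.77, 9.59 and 9.76 in controls. The knockout range enclosed the control range. The log2 difference was 0.0070, with a 95% interval of -0.28 to 0.29.

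The difference between both probes within each array was then compared, a measure chosen after the values were seen. Col4a1 minus Col4a2 averaged 0.51 ± 0.19 in E9.0 knockouts and 0.85 ± 0.11 in controls (SD, n = 4 each). The highest knockout and the lowest control array both lay at 0.74. A two-sided exact permutation test over 70 arrangements gave p = 0.0571 (0.171 after Benjamini-Hochberg adjustment over the 3 stages), where 0.0286 is the smallest p possible. At E8.5 the same measure was 1.15 ± 0.08 in knockouts and 1.13 ± 0.14 in controls, and at E8.75 it was 1.26 ± 0.11 in knockouts and 1.39 ± 0.23 in controls (SD, n = 4 each). Neither stage passed (exact permutation p = 0.886 at E8.5 and 0.286 at E8.75). Array by array, the 2 genes still varied together: their deviations from the group means correlated at r = 0.82 over 24 arrays, which share the normalization. For the other pairs of measured genes this r lay lower.

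**Figure D3:**
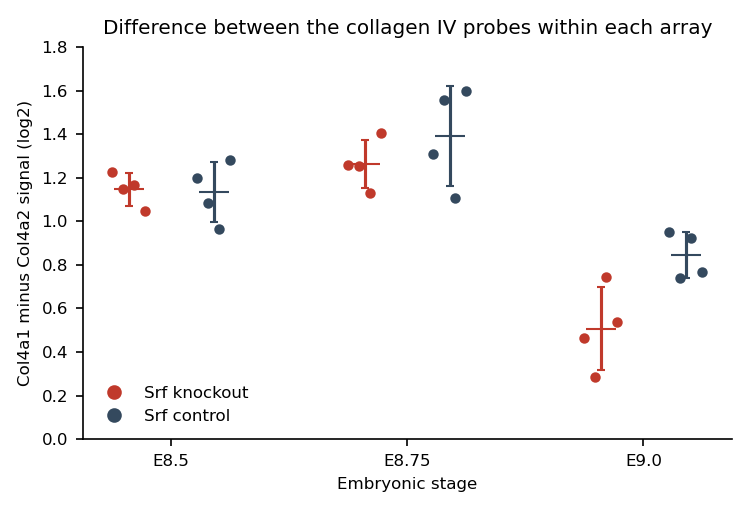
Col4a1 minus Col4a2 normalized signal (log2, vertical axis) within each array by stage, knockouts in red and controls in dark blue, with bars at the mean ± SD of 4 arrays. The E9.0 knockouts average 0.51 and the E9.0 controls 0.85.

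At E8.5 all 8 genes had overlapping groups, as did all but 2.03% of all features. Apart from Lamb1, which lay near background, the log2 differences ran from -0.052 for Lamc1 to 0.11 for Dag1. Dag1 read 8.89, 8.91, 9.29 and 9.30 in E8.5 knockouts, against 8.69, 8.98, 9.18 and 9.12 in controls. These 2 groups covered nearly the same range. Lamc1 read 10.07, 10.06, 9.84 and 9.51 in E8.5 knockouts, against 9.97, 9.82, 10.10 and 9.80 in controls. Here too the lowest and highest arrays of either genotype were interleaved.

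At E8.75 the groups overlapped for all 8 genes, where 4.01% of all features had groups that did not. The widest difference was that of Col4a2 (0.34, 95% interval -0.10 to 0.79). Its knockout arrays read 10.05, 10.11, 10.12 and 9.68, against 9.52, 9.91, 9.98 and 9.17 in controls. Knockout replicate 4 fell among the controls. Replicate 4 of the controls was also the lowest control array for Hspg2 (8.44) and Lama1 (7.92). At E8.75, 5 of 10 measured markers of visceral yolk sac endoderm were higher in knockouts (median log2 difference 2.74), and the part of such tissue in the values of these genes was not tested.

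The genotype effect of Dag1 was larger at E9.0 than at E8.5. The difference of effects was 0.76 ± 0.19 (SE, limma adjusted p = 0.0287), and Dag1 was the single gene of 8 to pass, where 2.64% of all features passed, 1.77% with a higher effect at E9.0. The dimmer Dag1 probe gave 0.59 ± 0.24 (SE) and did not pass (limma adjusted p = 0.195). The call was also lost with only the arrays of the groups compared (adjusted p = 0.071). It was kept in 17 of 24 fits that left out 1 array, and lost without control E8.5 replicates 2, 3 and 4, knockout E8.5 replicates 1 and 2, control E9.0 replicate 3 or knockout E9.0 replicate 2 (adjusted p = 0.0529 to 0.0763). Lamc1 had a difference of effects of 0.50 ± 0.17 (SE, limma adjusted p = 0.108). Averaged over the 3 stages, Dag1 was higher in knockouts by 0.33 ± 0.09 (SE, limma adjusted p = 0.0266), where 7.29% of all features passed, 4.24% higher and 3.05% lower. The E9.0 effect (0.86) was the largest behind this average, with effects of 0.11 for E8.5 and 0.010 for E8.75. Its dimmer probe gave 0.30 and did not pass (limma adjusted p = 0.113), and the call was lost without knockout E8.75 replicate 1 or 3 (adjusted p = 0.0634 and 0.0758).

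The change between E8.5 and E9.0 was compared within each genotype. All 10 measured visceral yolk sac endoderm markers were lower at E9.0 in both genotypes (median log2 difference -3.43 in controls and -3.56 in knockouts). Over all features 18.8% were lower in controls and 18.2% in knockouts. Of 12 measured erythroid markers, 12 were higher in controls (median 3.09) and 1 in knockouts (median 0.71), beside 15.8% and 16.5% over all features. The part of such cells in the stage changes given here was not tested. Lama1 rose in both genotypes. In knockouts it read 9.76, 9.53, 9.49 and 10.12 at E9.0, against 9.01, 8.93, 9.48 and 9.04 at E8.5. In controls it read 10.38, 9.28, 9.55 and 9.84 at E9.0, against 8.93, 9.21, 9.15 and 8.96 at E8.5. In each genotype every E9.0 array lay above every E8.5 array. The rise was 0.61 ± 0.19 in knockouts and 0.70 ± 0.19 in controls (SE, limma adjusted p = 0.0153 and 0.00631). The call in knockouts was lost without knockout E8.5 replicate 2 or knockout E9.0 replicate 4 (adjusted p = 0.055 and 0.0653). The difference between these changes did not pass the test, with a 95% interval of -0.65 to 0.47.

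In knockouts 5 of the 8 genes changed between the stages, 4 higher and 1 lower at E9.0. Over all features 34.7% changed in knockouts, 16.5% higher and 18.2% lower. Hspg2 rose by 0.76 ± 0.17 and Lamc1 by 0.47 ± 0.12 (SE, limma adjusted p = 0.00109 and 0.0033). Col4a1 fell by 0.61 on the log2 scale (limma adjusted p = 0.00213), and its E9.0 arrays all lay below its E8.5 arrays, which read 11.14, 10.81, 10.73 and 10.55. Dag1 rose by 0.38 ± 0.13 (SE, limma adjusted p = 0.0272) with overlapping arrays. The Dag1 change was not called with only the arrays of the groups compared (adjusted p = 0.0975), without array weights (0.0528), or without knockout replicates 1 or 2 of either stage (0.0877 to 0.109).

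In controls 2 of the 8 genes changed, 1 higher (Lama1) and 1 lower (Dag1), where 34.6% of all features changed, 15.8% higher and 18.8% lower. The Dag1 probe fell by 0.38 on the log2 scale (limma adjusted p = 0.028), a call lost without array weights (adjusted p = 0.0538), without the arrays of E8.75 (0.0521), and without control E8.5 replicates 2, 3 or 4 or control E9.0 replicates 2 or 3 (0.0576 to 0.0972). The dimmer Dag1 probe gave 0.19 ± 0.17 (SE, limma adjusted p = 0.402), so the probes differ in direction in controls. In knockouts the dimmer probe rose by 0.79 ± 0.17 (SE, limma adjusted p = 8e-04). Hspg2 was higher by 0.41 in controls and did not pass (limma adjusted p = 0.0631). The knockout and control changes of Hspg2 were not shown to differ (0.36 ± 0.24, SE, limma adjusted p = 0.48). Col4a1 gave -0.23, with a 95% interval of -0.53 to 0.07, and its knockout and control changes were not shown to differ (limma adjusted p = 0.353).

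**Figure D4:**
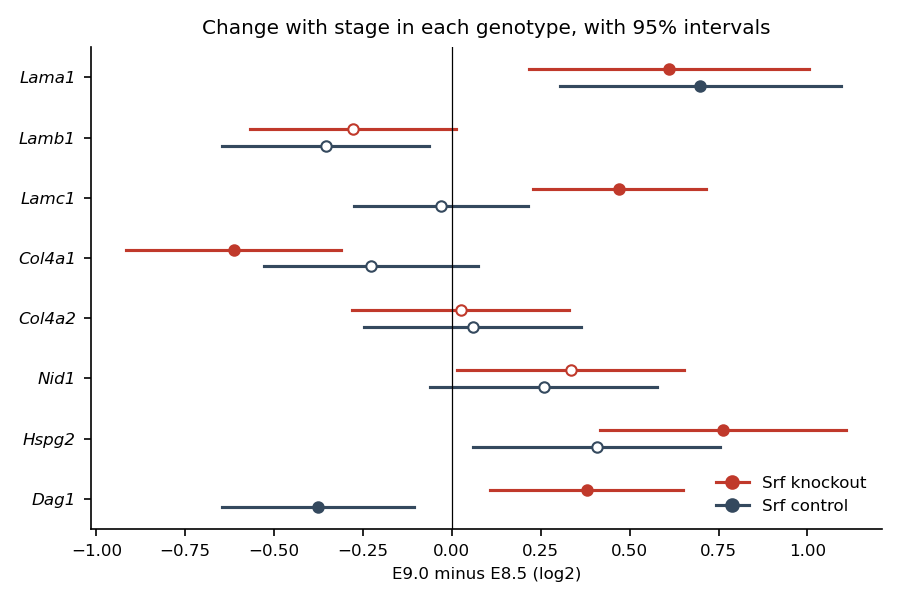
Change between E8.5 and E9.0 (E9.0 minus E8.5, log2, horizontal axis) of the 8 measured genes in knockouts (red, upper) and controls (dark blue, lower), with 95% intervals; filled circles passed limma's test. The brighter Dag1 probe was higher in knockouts (0.38) and lower in controls (-0.38). Lama1 was higher in both (0.61 in knockouts and 0.70 in controls).

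Within each gene the order of the 6 group means was also taken. The brighter Dag1 probe was lowest at 8.15 in E8.75 controls, followed by 8.16 in E8.75 knockouts and 8.61 in E9.0 controls. Then came 8.99 in E8.5 controls, 9.10 in E8.5 knockouts and 9.48 in E9.0 knockouts. Among these neighbours, only the knockouts of E8.75 and controls of E9.0 had arrays that did not overlap. As for the brighter Dag1 probe, the lowest means of Lama1 and Hspg2 lay at E8.75 and the highest at E9.0. The dimmer Dag1 probe had another order. It was lowest in E8.5 controls (7.99), with 8.06 in E8.75 knockouts and 8.11 in E8.75 controls. It averaged 8.19 in E9.0 controls and was highest in E9.0 knockouts (8.96). Nid1 had its highest means at E8.75, with 7.73 ± 0.24 in knockouts and 7.70 ± 0.09 in controls (SD, n = 4 each). Its E8.75 arrays did not overlap those of E9.0. These stage differences stand beside the brighter arrays of E8.75 and were not tested.

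Of 26 other basement membrane components, 16 were measured, and at E9.0 4 rose and 1 fell in the knockouts. This share is read beside 13.5% higher and 11.3% lower over all features, and the median log2 difference was 0.06, against 0.0056 over all features. Lamb2, a laminin beta chain, averaged 7.40 ± 0.27 in knockouts and 6.46 ± 0.20 in controls (SD, n = 4 each), a rise of 0.94 (limma adjusted p = 8.15e-05). Col4a5 and Col4a6, the collagen IV chains encoded head to head on the X chromosome, both rose by 0.66 (limma adjusted p = 0.000159 and 0.000977). Agrn, which encodes the proteoglycan agrin, rose by 0.44 (limma adjusted p = 0.00692). Hmcn1, which encodes hemicentin, fell by 0.30 on the log2 scale (limma adjusted p = 0.0248) but was detected on only 1 of 4 knockout arrays. Nid2, the nidogen paralogue, gave 0.08 and did not pass. Col4a6 also had a larger genotype effect at E9.0 than at E8.5 (0.86 ± 0.21, SE, limma adjusted p = 0.0247).

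Of 21 laminin and fibronectin receptors, 14 were measured, and 2 rose and 3 fell in the knockouts at E9.0, beside 13.5% higher and 11.3% lower over all features, with a median log2 difference of -0.14. The alpha chains that fell were Itga5, of the fibronectin receptor, by 0.76, Itga3, of a laminin receptor, by 0.53, and Itgav by 0.49 on the log2 scale (limma adjusted p = 0.000612, 0.0355 and 0.00502). Itga5 averaged 7.57 ± 0.30 in knockouts and 8.33 ± 0.15 in controls (SD, n = 4 each). Itgb5, a beta chain that pairs with Itgav, rose by 0.68, and the syndecan gene Sdc4, which encodes a fibronectin co-receptor, rose by 0.78 (limma adjusted p = 7.64e-05 and 0.00158). Itgb1, the common beta chain of laminin and fibronectin receptors, gave 0.19 and Itga6, an alpha chain of laminin receptors, gave -0.014, and neither passed. With the arrays of E9.0 alone Sdc1, a syndecan gene, also passed as lower (-0.32, adjusted p = 0.0454). Among 15 of 25 measured genes of the dystroglycan complex and its glycosylation, B4gat1 alone passed. B4gat1 encodes an enzyme that builds the laminin-binding sugar of dystroglycan, and it averaged 8.87 ± 0.26 in knockouts and 8.12 ± 0.09 in controls (SD, n = 4 each, limma adjusted p = 0.000127). That is 1 of 15 genes, where 13.5% of all features were higher.

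Of 23 genes of collagen synthesis and crosslinking, 18 were measured, and 6 rose and 2 fell in E9.0 knockouts, with a median log2 difference of 0.03. Over all features 13.5% were higher and 11.3% lower. Loxl2, a lysyl oxidase that crosslinks collagen IV, rose by 1.17. The prolyl hydroxylase subunits P4ha2 and P4ha1 rose by 1.03 and 0.73 (limma adjusted p = 1.54e-05 for Loxl2, 1.79e-06 for P4ha2 and 0.00169 for P4ha1). The lysyl hydroxylases Plod2 and Plod3 rose by 0.45 and 0.35, and Colgalt2, a collagen galactosyltransferase, rose by 0.26 (limma adjusted p = 0.0322, 0.0189 and 0.0375). Serpinh1, the collagen chaperone, fell by 1.02 and the transglutaminase Tgm2 fell by 1.16 on the log2 scale (limma adjusted p = 0.00188 and 0.0132). With the arrays of E9.0 alone Plod3 and Colgalt2 were not called, and Loxl1, another lysyl oxidase gene, was (0.33, adjusted p = 0.0211).

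Of 29 matrix proteases and inhibitors, 21 were measured, and in E9.0 knockouts 1 rose and 1 fell. Over all features 13.5% were higher and 11.3% lower. Mmp9, a gelatinase, rose by 0.86 and Timp2, a metalloprotease inhibitor, fell by 0.56 on the log2 scale (limma adjusted p = 0.0287 and 0.0109). Mmp9 had overlapping groups and was not called with the arrays of E9.0 alone. Of 31 interstitial and fibronectin-associated genes, 21 were measured, and 3 rose and 4 fell, beside 13.5% higher and 11.3% lower over all features, with a median log2 difference of -0.14. Ecm1, Col1a1, Ccn2 and Ccn1 fell by 1.32, 1.10, 0.90 and 0.77 on the log2 scale. Col1a1 was detected on 2 of 4 knockout arrays. Ltbp1, Col6a1 and Tgfbi rose by 0.61, 0.58 and 0.45. None of these 6 lists held a called gene at E8.5 or E8.75.

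**Figure D5:**
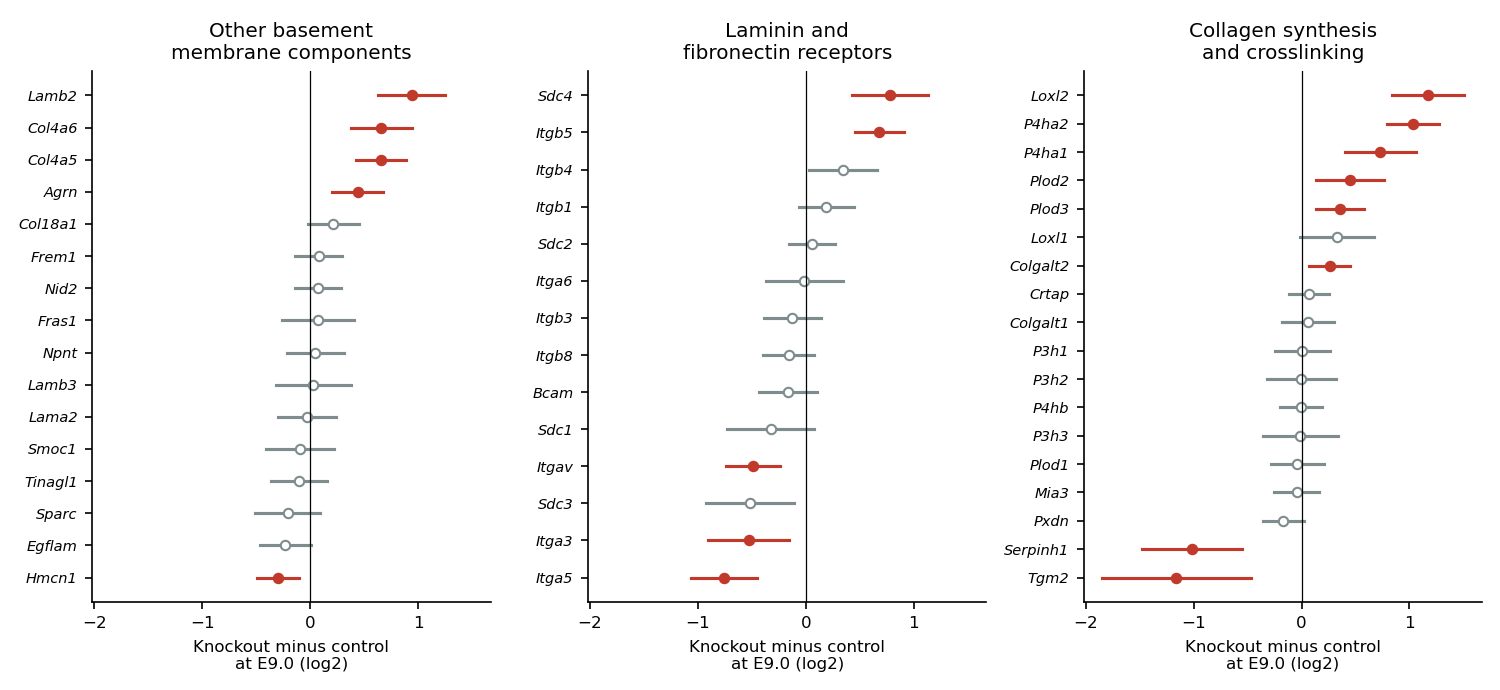
Knockout minus control difference at E9.0 (log2, horizontal axis) of the measured genes of 3 lists (other basement membrane components, receptors, and collagen synthesis and crosslinking), with 95% intervals; filled red circles passed limma's test. Changes in both directions are seen in each list, such as Lamb2 (0.94) and Hmcn1 (-0.30).

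Markers of other cell types and states moved at E9.0 as well. Their counts are read beside 13.5% higher and 11.3% lower over all features. These lists too were chosen with earlier results of these data known. All 12 measured markers of primitive erythroid cells were lower in knockouts (median log2 difference -3.28). Their mean level ranged from 5.87 to 8.88 over the knockout arrays and from 9.77 to 11.22 over the control arrays. Of 14 measured hypoxia response genes, 11 rose (median 0.84), and the mean level of the list was 9.59 to 9.97 in knockouts and 8.46 to 8.73 in controls. P4ha1 and Plod2 belong to this list too. Of 7 markers of parietal endoderm, a tissue rich in laminin and collagen IV, 4 were measured, and their mean level was 6.91 to 7.14 in knockouts and 7.15 to 7.39 in controls. Pth1r alone of these passed the test, with a fall of 0.70 on the log2 scale, and 1 of the 4 had a positive difference. The probes of Thbd, Plat and Srgn did not pass the filter on dim probes.

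The next counts too stand beside 13.5% higher and 11.3% lower over all features. Of 9 measured endothelial markers, Emcn alone passed and fell by 2.28 on the log2 scale. The list's mean level was 6.998 to 7.86 in knockouts and 7.66 to 7.88 in controls. Of 8 neural tube markers 4 were measured, and their mean level was 6.73 to 7.02 in E9.0 knockouts and 6.13 to 6.39 in E9.0 controls. Hes5 and Irx3 rose by 1.43 and 0.87 (limma adjusted p = 0.000321 and 0.016), and the other measured neural tube markers did not pass. All 7 notochord and node markers were measured, and their mean level was 5.44 to 5.66 in E9.0 knockouts and 5.75 to 5.85 in E9.0 controls. Foxa2, Lefty1 and Noto fell by 0.52, 0.58 and 0.65 on the log2 scale, and each was detected on 1 of 4 knockout arrays. The other markers of this list did not pass, and 3 of the 7 had a positive difference. Of 12 tail bud and presomitic mesoderm genes 10 were measured, and their mean level was 9.03 to 9.65 in E9.0 knockouts and 9.25 to 9.51 in E9.0 controls. In that list Cdx4 and Tbx6 rose by 0.54 and 0.45, and Wnt5a fell by 0.74 on the log2 scale (limma adjusted p = 0.00494, 0.0442 and 0.00437), of which Tbx6 was not called with the arrays of E9.0 alone (0.115). The probes of T and Msgn1 did not pass the filter. Another measure that moved with genotype at E9.0 was the mean of the 4 dimmer Actb probes less the brightest one. It lay at -4.24 to -3.01 in E9.0 knockouts and -5.42 to -4.97 in E9.0 controls. At E8.5 and at E8.75 the genotypes overlapped in this measure. The brightest Actb probe itself fell in E9.0 knockouts (-0.50 on the log2 scale, limma adjusted p = 0.00425). These dimmer probes moved both ways from E9.0 controls to knockouts. Some rose (5.58 to 8.30 and 5.26 to 8.10) and the others fell (13.79 to 12.90 and 12.99 to 12.67). The part of these differences in the results for Dag1, Lamc1, Hspg2 and Col4a1 was not tested. In whole tissue, fewer cells of a type and less RNA per cell cannot be told apart.

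The genes whose pattern over the 24 arrays was most like that of a called gene were also listed. For Dag1 they were Acvr2b, Rnpepl1 and Psme3ip1 (Pearson r of 0.933, 0.926 and 0.925). For Hspg2 they were Tab1, Csnk1g2 and Zer1 (0.945, 0.938 and 0.937), and for Lamc1 they were Prpf40b, Idua and Prnp (0.846, 0.828 and 0.806). These arrays share the differences between stages, including the brightness at E8.75. Lama1 and Hspg2 had the highest such r among pairs of the measured genes (0.87 over 24 arrays), and it was 0.57 for deviations from the group means.

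RefSeq start windows of 300 bases (GRCm38.p6) were given for 7 of the 10 genes. Fn1, Lama1 and Lamc1 had none, so they were not searched. Lama5, which was not measured, is among the 7, and Dag1 had 2 windows. The windows were searched on both strands for the CArG box, the element that SRF binds. ACGTG and GCGTG, cores of the element that hypoxia-inducible factors bind, were sought as well. ACGTG also lies within an E-box. None of the 7 genes held a CArG box in a window, where 1.63% of 32851 windows did, and the Srf window held 2. ACGTG or GCGTG stood in the windows of 5 genes (Lamb1, Col4a1, Col4a2, Hspg2 and Dag1), where 43.8% of all windows held one of them. That count is per gene and the share is per window.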

How the data were processed

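The deposited non-normalized table gives mean bead intensity per probe and array on a linear scale, with a detection p-value for each, per the file headers. The authors' series value table holds intensity too and was used as an alternative. The submitters' processing notes name GenomeStudio, without a version. Per the labels' protocols, Trizol was used for RNA extraction and an Ambion kit made biotinylated cRNA.

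Intensities were background corrected (normexp, offset 16), normalized by quantiles and transformed to log2 (neqc, limma 3.58.1, R 4.3.3). A probe was kept where 4 or more arrays had a detection p under 0.05, and each symbol was represented by its brightest probe. Probes were named through the platform annotation: 23978 had 1 symbol and 1719 none. The 6 group means were fitted over 24 arrays with 1 array weight per stage (limma), since spread differed between stages (weights 1.13 for E8.5, 0.603 for E8.75 and 1.47 for E9.0). Genes named were all members, Srf, called genes of companion lists and the 3 genes most like each called member. Members and lists were chosen with earlier results of these data known, and Nid2, Itgb1 and Itga6 were named after their values were seen.

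On simulated data the fit stayed near its stated rate of false calls where each gene's spread changed between stages by 1 common factor. It called more false genes than its threshold states where each gene had its own spread at each stage. A fit of only the groups compared stayed near its rate with either kind of spread. Its result is given where it changes a call of a member, or of a companion list at E9.0. It was not run for the lists in other comparisons, such as the yolk sac markers at E8.75 or the Col4a6 difference of effects. Only genotype comparisons within a stage were simulated. Alternatives were the weights, the arrays fitted, the filter, the offset, the authors' values, a replicate block and leaving out each array.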

Additional observations from a re-analysis of the deposited data

Results flagged for a closer look

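In 48 groups of 4 arrays, the arrays far from the rest of their group were sought with Dixon's test, and chance marks about 1 group in 20. Col4a2 in knockout E8.75 replicate 4 (9.68) stood apart, with a gap of 0.833 of the group's range. Hspg2 in knockout E9.0 replicate 3 (10.21) stood apart with a gap of 0.901 of the range. The genotype effect of Dag1 differed between E9.0 and E8.5 by 0.76 on the log2 scale in limma's test of the difference.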

How the results depend on the processing

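Dag1 and Lamc1 stayed called and higher in E9.0 knockouts under all 9 alternatives and in all 24 fits that left out 1 array. Hspg2 kept its call in 5 of the 9 alternatives, and its adjusted p was 0.153 without array weights, 0.0887 with only the arrays of the groups compared, 0.0855 with no filter on dim probes and 0.0774 with the replicate block. At E8.5 and E8.75 no member was called under any alternative run. The count for the difference of effects fell to 0 without array weights, with only the arrays of the groups compared and without the arrays of E8.75. The count for E9.0 against E8.5 in controls was 1 without array weights and without the arrays of E8.75. The cause of these moves was not tested. Leaving out 1 array gave 2 to 4 members called at E9.0, 0 to 1 for the mean effect, 0 to 1 for the difference of effects, 1 to 4 for the stage change in controls, 3 to 6 for that in knockouts, and 0 to 0 at E8.5 and E8.75. Of the genes that missed the test at E9.0, Col4a1 kept its sign when 1 array was left out (-0.35 to -0.31). The others spanned 0, with ranges of -0.20 to 0.16 for Lama1, -0.072 to 0.10 for Col4a2, -0.0083 to 0.23 for Nid1 and, near background and not read as a change, -0.14 to 0.0079 for Lamb1.

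Over all features, 2725 were called at E9.0, against 1454 without array weights. At E8.75 the count was 14, against 58 without array weights, 5 with only the arrays compared, 4 with no filter and 8 with an offset of 50 or the deposited values. At E8.5 it was 5, against 1 without array weights or with only the arrays compared, 3 without the arrays of E8.75 and 2 with the replicate block. For the difference of effects it was 291, against 93 without array weights, 172 with only the arrays compared and 187 without the arrays of E8.75. In fits of the E9.0 arrays alone, chosen after seeing the data, the list counts moved by over 1.5 times for proteases (1, against 2), endothelium (2, against 1, with Pecam1 added) and yolk sac (1, against 0, with Trf added); tail bud gave 2, against 3.

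Same-numbered arrays were not shown to be pairs: of 12 knockout and control pairs, 2 had deviations that correlated over 0.1 (range -0.26 to 0.40), and 3 knockout arrays correlated best with their own number. With the replicate block, 2 members (Lamc1 and Dag1) and 2143 features were called at E9.0, and the mean effect and the difference of effects kept 1 called member each (Dag1). Lamb1 was near background, so its differences are limited by signal. Dim probes and 4 arrays a group limit what could be detected.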
